A study of Mus musculus with 25 samples.

Results

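The genes of endoplasmic reticulum (ER) stress and the integrated stress response were followed in melanomas that grew, held their size or shrank under CTLA-4 blockade: Hspa5, Herpud1, Xbp1, Atf4, Ddit3, Atf3, Trib3, Asns, Sesn2 and Chac1. The genes were chosen by name as widely used markers of these pathways, 10 of the 55450 genes of the count table, and all 10 were among the 18031 genes abundant enough to be tested. The samples were bulk RNA-seq libraries of 25 tumours grown in C57BL/6 mice from a single mouse melanoma line, B2905 (also called M4), so every tumour shares that line's background. Of 40 implanted mice, 30 were given antibody to CTLA-4, an inhibitory receptor of T cells, and 5 an IgG2b isotype control. Both were given at 10 mg/kg, 2 doses a week for 2 weeks, from an average tumour size of 75 mm3. Of the 20 sequenced anti-CTLA-4 tumours, 6 had grown (non-responders), 6 had kept their size (stable) and 8 had shrunk (responders) in the 10 to 11 days after the last dose. The 5 sequenced IgG2b tumours are called controls. Each library is a separate tumour, and outcome was observed rather than assigned, so the 3 anti-CTLA-4 groups differ in tumour course and not in treatment.

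When unfolded proteins build up in the ER, 3 membrane sensors (IRE1, encoded by Ern1, PERK, encoded by Eif2ak3, and ATF6) start the unfolded protein response. IRE1 splices Xbp1 mRNA, and XBP1 and cleaved ATF6 switch on chaperones and the machinery that sends misfolded proteins to the proteasome. PERK and other kinases, which sense amino acid shortage, double-stranded RNA or lack of haem, phosphorylate the translation factor eIF2alpha. This lowers protein synthesis in general while favouring translation of ATF4. ATF4 induces amino acid and redox genes and, with CHOP (Ddit3), genes tied to feedback and cell death. Much of this signalling runs through splicing, phosphorylation and translation, which mRNA levels per gene do not measure.

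The 10 genes fall into 3 roles. Hspa5 (chromosome 2, 34771970 to 34777547, plus strand, GRCm38, GENCODE M21) encodes BiP, the main ER chaperone. Herpud1 (chromosome 8, 94386438 to 94395377, plus strand) encodes an ER membrane protein of ER-associated degradation, and Xbp1 (chromosome 11, 5520659 to 5525893, plus strand) the transcription factor that IRE1 activates. Among the transcription factors of the integrated stress response are Atf4 (chromosome 15, 80255184 to 80257541, plus strand), Ddit3 (chromosome 10, 127290774 to 127296288, plus strand) and Atf3 (chromosome 1, 191170296 to 191218039, minus strand). Their known targets include Trib3 (chromosome 2, 152337422 to 152344032, minus strand), a pseudokinase that restrains ATF4 and CHOP, and Asns (chromosome 6, 7675169 to 7693254, minus strand), asparagine synthetase. The other two are Sesn2 (chromosome 4, 132492032 to 132510501, minus strand), a leucine sensor that restrains mTORC1 and is also induced by p53, and Chac1 (chromosome 2, 119351229 to 119354381, plus strand), an enzyme that degrades glutathione.

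The promoters were searched for sites of the factors that act in these pathways. Windows of 250 bases before to 50 after each RefSeq gene start (GRCm38.p6) were searched on both strands for 5 motifs. The ER stress element, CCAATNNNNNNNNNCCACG, bound by ATF6 and XBP1 with NF-Y, was in 0.119% of 32851 windows, and its relative ER stress element II, ATTGG and CCACG with any 1 base between them, in 0.0365%. The C/EBP-ATF composite site, TGATGNAA, bound by ATF4 with a C/EBP partner, was in 3.97%. The cyclic AMP response element TGACGTCA was in 1.79% and the XBP1 core TGACGTGG in 0.676%. Neither of the last pair was in any of the 10 members' windows. Hspa5 held an ER stress element 65 bases before its start, and Herpud1 an ER stress element II 52 bases and a composite site 112 bases before its start. A composite site also lay 23 bases before the start of Asns, 110 before Atf3 and 193 before Chac1, and 14 bases after the start of Trib3, so 5 of the 10 members held it. The windows of Xbp1, Atf4, Ddit3 and Sesn2 held none of the 5 exact motifs, which says only that these letters are not in those windows. No 2 matches overlapped. The 250 bases before the RefSeq start of 5 genes that hold a match there are shown from 5′ to 3′ on the gene's strand, with the matched motif in capitals.
Hspa5, chr2:34771840-34772089, plus strand: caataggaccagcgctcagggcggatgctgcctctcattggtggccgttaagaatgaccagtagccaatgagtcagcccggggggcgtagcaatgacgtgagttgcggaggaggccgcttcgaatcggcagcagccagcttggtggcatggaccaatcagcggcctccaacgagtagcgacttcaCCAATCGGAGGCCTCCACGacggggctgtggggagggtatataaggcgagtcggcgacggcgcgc
Herpud1, chr8:94386179-94386428, plus strand: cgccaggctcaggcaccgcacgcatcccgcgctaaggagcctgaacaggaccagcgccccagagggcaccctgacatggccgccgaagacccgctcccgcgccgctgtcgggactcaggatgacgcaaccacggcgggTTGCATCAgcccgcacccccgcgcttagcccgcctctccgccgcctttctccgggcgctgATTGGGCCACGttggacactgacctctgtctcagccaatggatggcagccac
Asns, chr6:7693210-7693459, minus strand: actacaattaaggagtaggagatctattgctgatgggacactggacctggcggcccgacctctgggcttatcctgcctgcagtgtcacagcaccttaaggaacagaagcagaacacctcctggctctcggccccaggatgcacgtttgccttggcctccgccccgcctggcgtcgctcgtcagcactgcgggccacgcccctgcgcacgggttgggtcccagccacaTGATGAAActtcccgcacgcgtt
Atf3, chr1:191183334-191183583, minus strand: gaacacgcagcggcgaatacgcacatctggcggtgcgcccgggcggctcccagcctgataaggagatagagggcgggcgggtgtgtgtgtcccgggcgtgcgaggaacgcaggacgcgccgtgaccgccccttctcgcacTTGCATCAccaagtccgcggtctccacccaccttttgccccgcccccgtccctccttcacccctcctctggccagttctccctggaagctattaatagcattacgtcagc
Chac1, chr2:119350992-119351241, plus strand: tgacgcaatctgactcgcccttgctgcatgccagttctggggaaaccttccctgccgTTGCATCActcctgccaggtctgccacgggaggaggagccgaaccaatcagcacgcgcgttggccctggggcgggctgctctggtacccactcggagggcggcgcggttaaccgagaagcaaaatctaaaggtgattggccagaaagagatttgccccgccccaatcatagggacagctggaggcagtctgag
In the Hspa5 sequence the capitals spell the whole ER stress element, with CCAAT and CCACG at its ends. In Asns the composite site reads in the gene's direction, and in Herpud1, Atf3 and Chac1 it reads on the opposite strand, where its complement TTGCATCA is printed. Of the 16 other ER chaperone and foldase genes, 12 had a window and 6 of these held an ER stress element (Calr, Canx, Creld2, Dnajc3, Hsp90b1 and Pdia6). These are matches of letters, not measurements of binding.

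**Figure D1:**
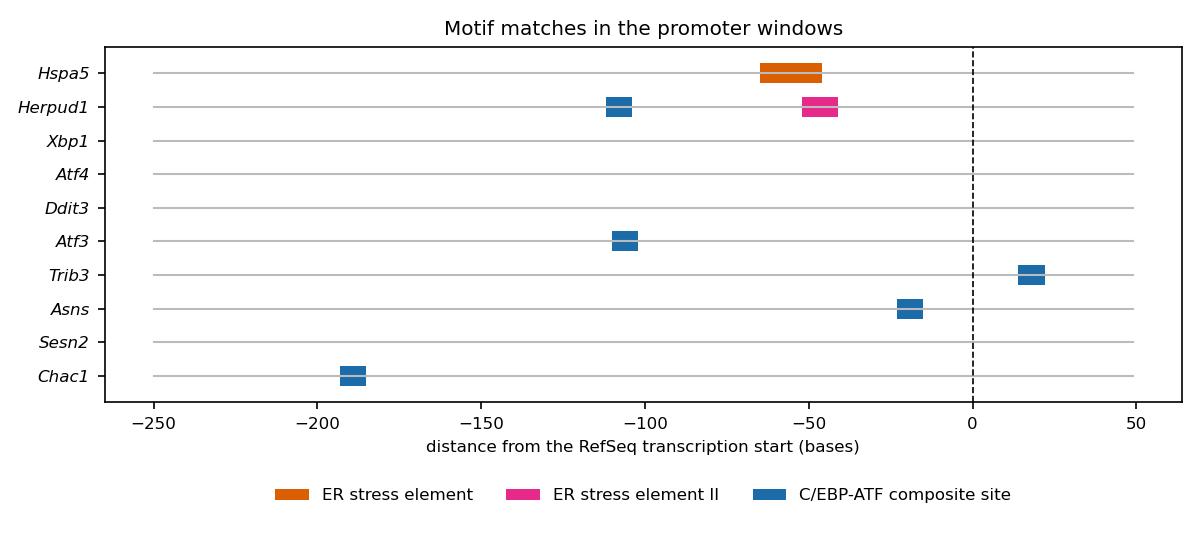
Positions of motif matches in the promoter windows of the 10 genes, as distance in bases from the RefSeq gene start (x axis, 250 before to 50 after), with 1 row per gene and 1 colour per motif. The ER stress elements of Hspa5 and Herpud1 lie 65 and 52 bases before the start, and composite sites lie in 5 of the 10 windows.

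Total counts were 8.76 to 34.3 M per tumour. The share of counts in protein-coding genes was 86.4 to 88.4% in control tumours, 82.9 to 88.4% in non-responders and 83.8 to 89.2% in stable tumours, but 23.8 to 87.0% in responders. It was lowest in responder 1 (23.8%) and responder 4 (54.2%), and responder 5 (87.0%) was the only responder within the range of the other groups. The numbers that lead the column names of the deposited counts ran by group, and what they stand for is not stated there. If they follow processing order, that order and group cannot be told apart. Summed markers of melanocytic cells (Mlana, Dct, Tyr, Tyrp1 and Pmel) reached 9759 to 16197 counts per M counts (CPM) in controls and 376 to 13059 CPM in non-responders, but 10.4 to 163 CPM in stable tumours and 17.6 to 409 CPM in responders. Summed macrophage markers were at 509 to 981, 874 to 7408, 5403 to 8506 and 2109 to 9344 CPM in the same order. In bulk RNA fewer cells of a type cannot be told apart from less RNA per cell. Mitochondrial rRNA took at most 0.966% of counts in a control tumour and 1.06% in a non-responder, but 1.31 to 7.28% in stable tumours and 1.15 to 14.3% in responders. No marker of either list was at 0 in every tumour of a group.

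Levels between genes were compared on the RPKM scale, reads per kilobase of gene and per M reads, which takes gene length into account. By the median over 25 tumours Hspa5 was the most abundant of the 10 at 115 RPKM, followed by Atf4 at 63.2 and Xbp1 at 34.3. Asns (27.6), Herpud1 (25.9) and Ddit3 (25.7 RPKM) were close together, and their ranges over tumours overlapped. Atf3 had a median of 17.0 RPKM. Sesn2 (5.46), Trib3 (3.90) and Chac1 (2.55 RPKM) were the least abundant. The genes also differed in their spread: from the lowest to the highest tumour, Herpud1 CPM varied 2.09-fold and Atf4 2.28-fold, Trib3 10.1-fold and Chac1 65.1-fold. Unless RPKM is named, levels from here on are CPM of the library size scaled by the trimmed mean of M-values (TMM). The TMM factor was 0.339 in responder 1 and 0.818 to 1.19 in the other tumours. A factor below 1 raises CPM, so the scaling raised the CPM of responder 1 the most.

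**Figure D2:**
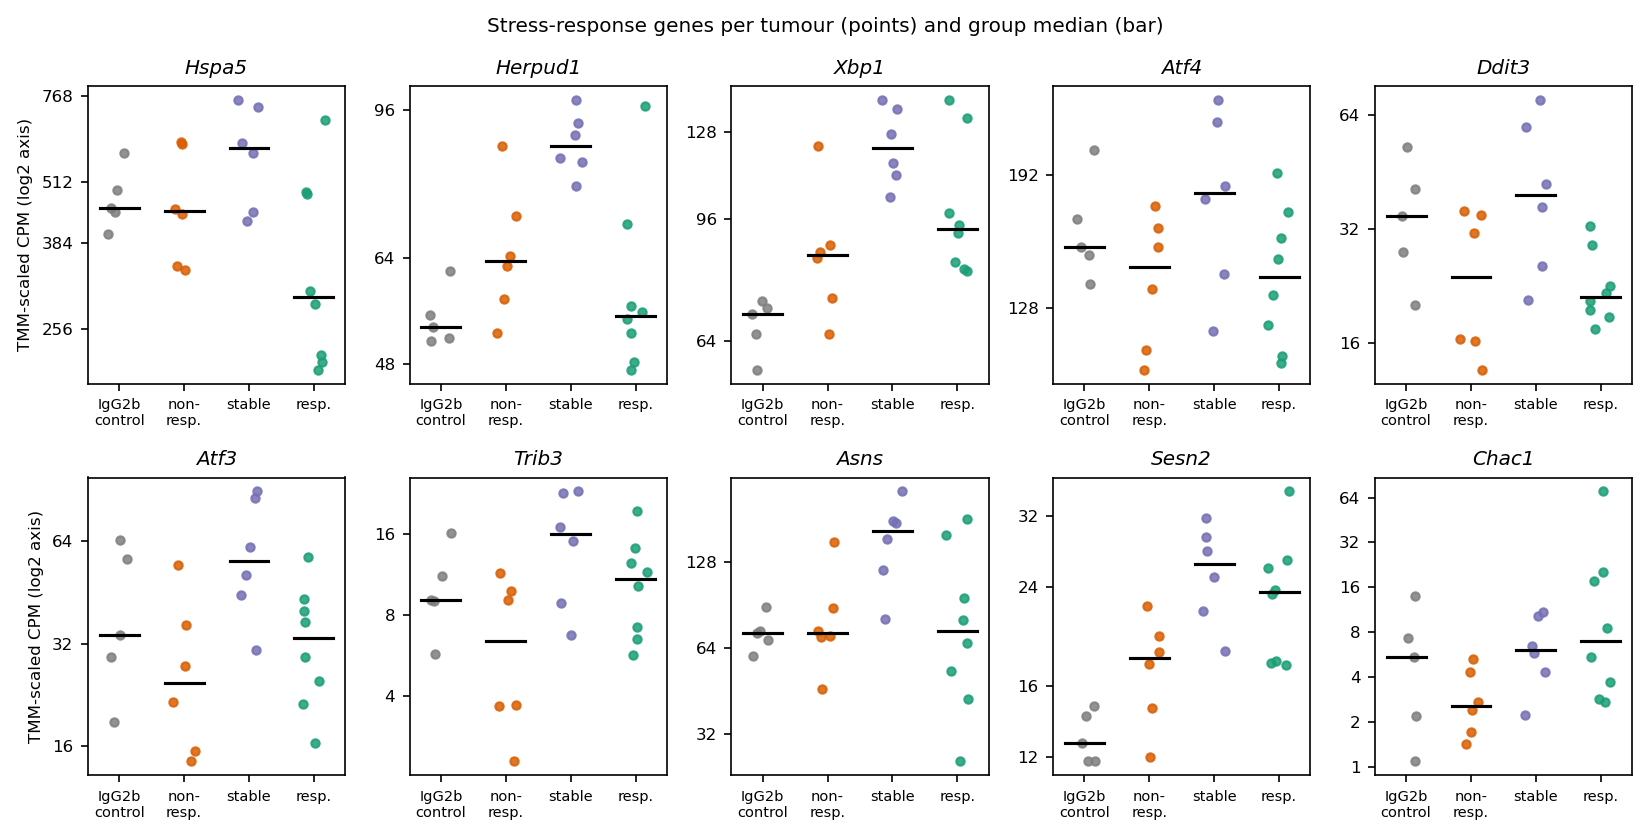
TMM-scaled CPM (y axis, log2 scale, which differs between panels) of each of the 10 genes in each of the 25 tumours, grouped as IgG2b control, non-responder, stable and responder; each point is a tumour and the bar is the group median. Stable tumours have the highest median for 9 of the 10 genes, while Chac1 peaks at 70.7 CPM in responder 1.

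The ER-folding genes were measured at the following levels. In the 5 controls Hspa5 was at 494, 588, 402, 445 and 454 CPM. Its lowest, median and highest values were 338, 446 and 620 CPM in non-responders, 427, 601 and 756 in stable tumours and 211, 298 and 687 in responders. All 4 groups overlapped, and 5 of the 8 responders lay below every control and every non-responder. Herpud1 was at 61.8, 51.0, 54.8, 53.1 and 51.5 CPM in controls. Its lowest, median and highest values were 52.2, 63.5 and 86.9 CPM in non-responders, 77.9, 86.9 and 98.7 in stable tumours and 47.2, 54.7 and 97.0 in responders. Every stable tumour lay above every control, and responder 5, at 97.0 CPM, was the 1 responder of 8 that did not fall under the whole stable group. Xbp1 was at 69.9, 71.3, 65.4, 58.1 and 73.1 CPM in controls. Its lowest, median and highest values were 65.6, 85.1 and 122 CPM in non-responders, 103, 121 and 143 in stable tumours and 80.6, 92.7 and 142 in responders. Controls were lowest, with all stable tumours and all responders above them.

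Of the transcription factors of the integrated stress response, Atf4 was at 168, 207, 154, 138 and 151 CPM in controls. Its lowest, median and highest values were 106, 145 and 175 CPM in non-responders, 119, 182 and 242 in stable tumours and 108, 141 and 193 in responders, so that all groups overlapped. Ddit3 was at 34.5, 52.5, 40.9, 27.8 and 20.1 CPM in controls. It spanned 13.6 to 35.7 CPM in non-responders (median 23.8), 20.8 to 70.2 in stable tumours (median 39.3) and 17.4 to 32.6 in responders (median 21.1). Responders were the most uniform group for this gene, with an SD of 5.31 CPM against 19.2 in stable tumours. The Ddit3 values are uncertain because the gene overlaps Mars on the other strand, whose median count of 1312 is above the 410 of Ddit3, and whether the counting used strand is not given in the sources used here. A second Ddit3 entry of the annotation held only 0.118% of the counts under that symbol. Atf3 was at 34.0, 64.6, 56.9, 29.4 and 18.9 CPM in controls. It spanned 14.4 to 54.7 CPM in non-responders (median 24.6), 30.7 to 90.0 in stable tumours (median 56.2) and 16.4 to 57.5 in responders (median 33.2). Non-responder 6 was the highest of its group for Atf3, Ddit3, Xbp1, Herpud1, Trib3, Asns, Chac1 and Sesn2, and it also had that group's highest macrophage sum (7408 CPM).

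Of the target genes, Chac1, Trib3 and Asns varied most over the tumours (65.1-fold, 10.1-fold and 8.78-fold from lowest to highest), and Sesn2 varied 3.02-fold. Trib3 was at 9.10, 16.2, 11.2, 9.07 and 5.74 CPM in controls, and its medians were 6.42 in non-responders (2.29 to 11.5), 16.1 in stable tumours (6.77 to 23.2) and 10.9 in responders (5.69 to 19.6). Asns was at 68.5, 89.2, 72.4, 60.3 and 73.5 CPM in controls, and its medians were 72.2 in non-responders (46.3 to 150), 164 in stable tumours (81.1 to 226) and 73.5 in responders (25.8 to 181). Responders 3 and 5, at 181 and 159 CPM, were in the range of the stable tumours, and 5 of 8 responders were below all of them. Sesn2 was at 11.8, 14.2, 14.8, 11.8 and 12.7 CPM in controls, and its medians were 18.0 in non-responders (12.0 to 22.2), 26.3 in stable tumours (18.5 to 31.8) and 23.5 in responders (17.4 to 35.5). Controls were lowest and did not overlap with stable tumours or responders. Chac1 was at 2.20, 7.30, 14.1, 5.42 and 1.09 CPM in controls, and its medians were 2.56 in non-responders (1.42 to 5.31), 6.11 in stable tumours (2.24 to 11.0) and 6.96 in responders (2.71 to 70.7). Among responders it was at 70.7 CPM in responder 1, 20.3 in responder 4 and 17.7 in responder 2, and at 8.48 CPM or below in the other five. The value of responder 1 was raised by that tumour's low TMM factor of 0.339. Chac1 rested on 21 to 360 counts per tumour, the lowest counts of the 10 genes.

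**Figure D3:**
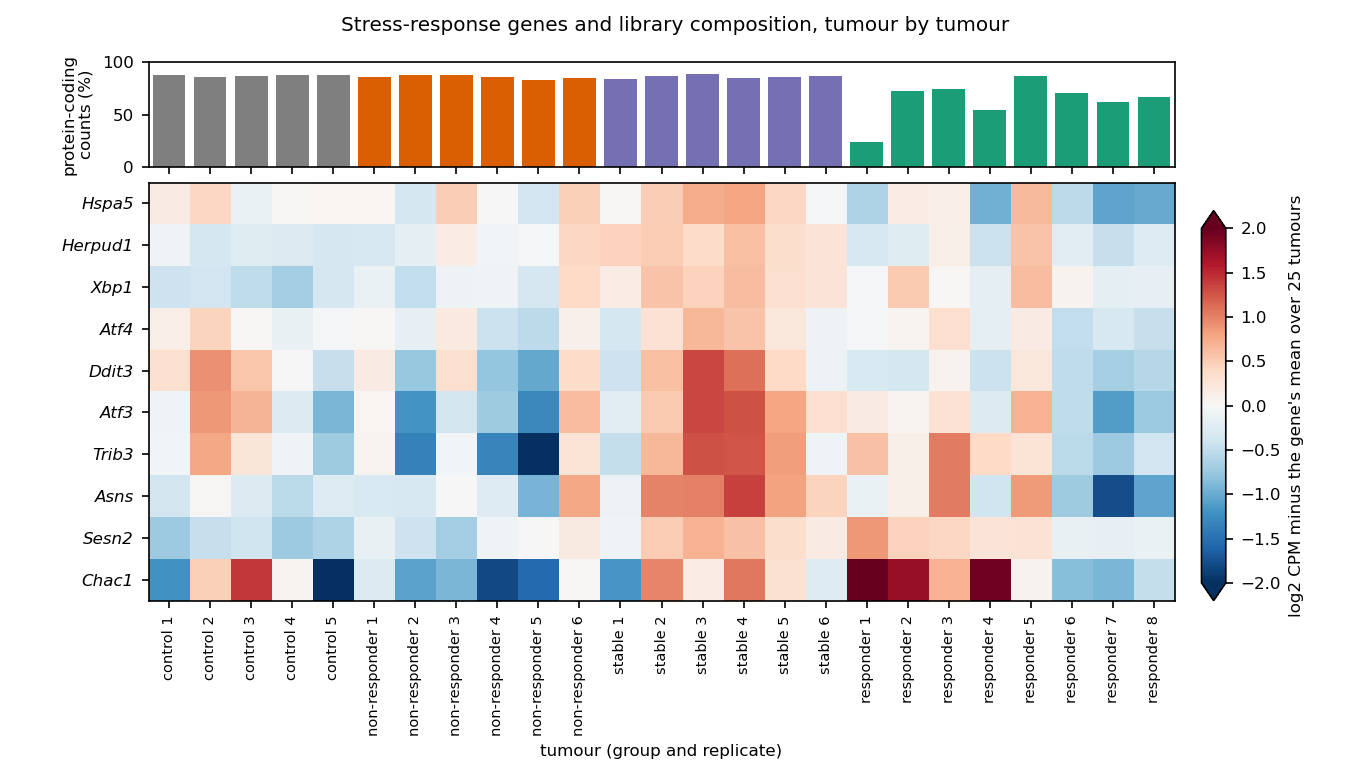
Log2 CPM of the 10 genes (rows) in the 25 tumours (columns, by group), each row relative to its mean over all tumours with the colour scale ending at −2 and 2, below bars of each tumour's share of counts in protein-coding genes (percent, from 0). The stable tumours 2 to 5 are high in most rows, non-responders 2, 4 and 5 are low in Ddit3 and Trib3, and responders 1, 2 and 4 stand out in Chac1.

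Stable tumours were compared with non-responders to ask how the stress genes differ between tumours that stopped growing and tumours that kept growing under the same antibody. Atf3, Xbp1, Trib3 and Sesn2 were higher in the stable group. The log2 fold change was 1.10 ± 0.36 (SE) for Atf3, a 2.14-fold difference (edgeR quasi-likelihood test, adjusted p = 0.04), and 1.23 ± 0.39 for Trib3, 2.35-fold (adjusted p = 0.034). It was 0.50 ± 0.15 for Xbp1, 1.42-fold (adjusted p = 0.0266), and 0.56 ± 0.17 for Sesn2, 1.48-fold (adjusted p = 0.0288). The 2 groups overlapped for each of these genes. These are 4 of 10 members, against 7.08% of all tested genes called higher, 7.86% called lower and 14.9% called in either direction. All 10 log2 fold changes were above 0, as were 48.0% of those of all tested genes, and the members' median was 0.67 beside −0.02 for all genes. The other six had values of 0.34 ± 0.26 for Hspa5, 0.37 ± 0.17 for Atf4, 0.41 ± 0.15 for Herpud1, 0.78 ± 0.29 for Ddit3, 0.90 ± 0.36 for Asns and 1.17 ± 0.71 for Chac1, with adjusted p from 0.0567 (Herpud1) to 0.398 (Hspa5). Tumours with the higher macrophage markers were also those of the stable group (5403 to 8506 against 874 to 7408 CPM), where 3 of 6 macrophage markers were called higher and 5 of 5 melanocytic markers lower. The mitochondrial rRNA share was also higher in every stable tumour (1.31 to 7.28%) than in every non-responder (0.783 to 1.06%). The part of these measures in the result was not tested.

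The calls between stable tumours and non-responders were close to the threshold of an adjusted p of 0.05. Leaving out 1 tumour at a time kept all log2 fold changes of the 4 called genes above 0, between 0.95 and 1.40 for Atf3, 0.44 and 0.63 for Xbp1, 1.05 and 1.46 for Trib3, and 0.48 and 0.65 for Sesn2. The Atf3 call was lost without non-responder 1, 2, 3, 4 or 5 or stable tumour 2, 3, 4 or 5 (adjusted p 0.051 to 0.107). The Xbp1 call was lost without non-responder 1, 2, 3 or 5 or stable tumour 2, 3 or 4 (0.0513 to 0.0759), the Trib3 call without non-responder 2, 4 or 5 or stable tumour 2, 3, 4 or 5 (0.0525 to 0.0898), and the Sesn2 call without non-responder 1, 2 or 3 or stable tumour 2, 3 or 4 (0.051 to 0.0812). Without non-responder 6, 7 of 10 members were called, Ddit3 (0.92), Asns (1.15) and Herpud1 (0.51) in addition to the 4, while the number of all tested genes called rose from 2693 to 3804. Ddit3 was also called without stable tumour 1 (0.92) or 6 (0.90). Of the 11 other settings tried, the Atf3 and Trib3 calls were each lost in 3 (no low-count filter, a test against 1.5-fold, and only the 2 groups compared) and the Xbp1 and Sesn2 calls in 2 (the first pair of these). Herpud1 (0.41) was called in 8 of the 11 and Ddit3 in 1, DESeq2.

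Responders were compared with stable tumours to ask how shrinking tumours differ from those that held their size. Hspa5, Herpud1, Ddit3 and Atf3 were lower in responders. The log2 fold change was −0.71 ± 0.24 (SE) for Hspa5, 0.613-fold (edgeR quasi-likelihood test, adjusted p = 0.024), and −0.54 ± 0.14 for Herpud1, 0.686-fold (adjusted p = 0.00554). It was −0.90 ± 0.27 for Ddit3, 0.537-fold (adjusted p = 0.0145), and −0.85 ± 0.33 for Atf3, 0.556-fold (adjusted p = 0.0453). The groups overlapped, with 5 of 8 responders below all stable tumours for Hspa5, 7 for Herpud1 and 4 each for Ddit3 and Atf3. These are 4 of 10 members, against 17.8% of tested genes called lower, 20.5% called higher and 38.2% called in either direction. Of the 10 log2 fold changes 9 were below 0, where 50.5% of those of all tested genes were above 0, with a median of −0.53 beside 0.01 for all genes. The values that missed the threshold were −0.82 ± 0.33 for Asns (adjusted p = 0.0527), −0.35 ± 0.16 for Atf4, −0.29 ± 0.14 for Xbp1, −0.51 ± 0.36 for Trib3, −0.13 ± 0.16 for Sesn2 and 1.27 ± 0.67 for Chac1, with adjusted p up to 0.516 (Sesn2). Chac1 was the only member with a value above 0.

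Herpud1 was the 1 gene of these 4 that was called without any 1 of the 14 tumours (−0.68 to −0.50). The Hspa5 call was lost without stable tumour 3 (−0.64), stable tumour 4 (−0.62) or responder 8 (−0.62), and the Ddit3 call without stable tumour 3 (−0.69). Of 12 other settings, the Ddit3 call was lost in 4 (the model with protein-coding share, the test against 1.5-fold and limma with both pseudocounts), the Hspa5 call in 4 (the first pair of these, only the 2 groups compared, and without responders 1 and 4) and the Herpud1 call in 2 (the first pair). The Atf3 call was lost without stable tumour 2, 3, 4 or 5 or responder 1, 2, 4, 6, 7 or 8 (−0.89 to −0.70, adjusted p 0.0525 to 0.115), and in 9 of the 12 other settings. Without responders 1 and 4, the 2 lowest in protein-coding share, Herpud1 and Ddit3 were the members still called, and Hspa5 was at −0.58 (adjusted p = 0.0944). Asns was called without stable tumour 1 (−0.95), responder 3 (−1.06) or responder 5 (−0.996), Atf4 without stable tumour 1 (−0.44) or responder 3 (−0.42), and Xbp1 without responder 2 (−0.36) or 5 (−0.38). Asns was also called lower in 3 of the 12 other settings, DESeq2 and limma with both pseudocounts. Adding each tumour's protein-coding share to the model, a measure that differs mainly between responders and the other tumours, left 0 members and 0 of all tested genes called by edgeR, with 0 members at an unadjusted p under 0.05; Hspa5 was at −0.32, Herpud1 at −0.31, Ddit3 at −0.72 and Atf3 at −0.73. Macrophage markers moved with these genes, at 2109 to 9344 CPM in responders against 5403 to 8506 in stable tumours, with 4 of 6 markers called lower. Responder 5 had the highest macrophage sum of all (9344 CPM), the highest Hspa5, Herpud1 and Xbp1 of its group and a protein-coding share like that of stable tumours; the part of these measures in the result was not tested.

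Between responders and non-responders, the tumours at the 2 ends of the outcome, Chac1 and Sesn2 were the called members. Chac1 had a log2 fold change of 2.44 ± 0.71 (SE), 5.42-fold (edgeR quasi-likelihood test, adjusted p = 0.00758), with 5 of 8 responders above all non-responders. Sesn2 was higher by 0.43 ± 0.16, 1.35-fold (adjusted p = 0.0318), also with 5 of 8 above all. These are 2 of 10 members, against 25.2% of tested genes called higher, 23.8% called lower and 48.9% called in either direction, and the median of the 10 was 0.15 beside 0.05 for all genes. The other eight were between −0.36 ± 0.24 (Hspa5, adjusted p = 0.21) and 0.72 ± 0.37 (Trib3, adjusted p = 0.106), with Atf4 at 0.02 ± 0.16 and Ddit3 at −0.11 ± 0.27. The size of the Chac1 difference rested on few tumours: it was 1.56 without responder 1 (adjusted p = 0.0292) and 1.21 without responders 1 and 4 (adjusted p = 0.087). In the model with protein-coding share, which leaves out no tumour, the Chac1 difference was 0.63 (adjusted p = 0.535). That share differs mainly between responders and the other tumours, and the model called 1810 of all genes against 8823 as reported. Responders 1 and 4, with 70.7 and 20.3 CPM of Chac1, had the lowest protein-coding shares (23.8 and 54.2%), and 5 of 5 melanocytic and 4 of 4 endothelial markers were called lower, and 2 of 5 T cell and 2 of 5 neutrophil markers higher, in responders than in non-responders. The part of these measures in the result was not tested. The Sesn2 call was lost without non-responder 2 (0.38) or 3 (0.34) or responder 1 (0.33) or 2 (0.40). It was also lost in 5 of 12 other settings: no low-count filter, the model with protein-coding share, the test against 1.5-fold, only the 2 groups compared, and without responders 1 and 4. Trib3 was called higher by limma with both pseudocounts, and Xbp1 with the stricter filter. Without non-responder 6, Xbp1 (0.34) and Trib3 (0.95) were called higher as well. Without responder 5, Hspa5 (−0.56, adjusted p = 0.0304) and Herpud1 (−0.26, adjusted p = 0.0372) were called lower in responders.

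Against the IgG2b controls, Xbp1 and Sesn2 were higher in both the stable and the responder group; the 3 comparisons with controls share the same 5 tumours. For Xbp1 the log2 fold change was 0.86 ± 0.16 (SE) in stable tumours (1.82-fold, edgeR quasi-likelihood test, adjusted p = 0.000122), 0.57 ± 0.15 in responders (adjusted p = 0.002) and 0.36 ± 0.16 in non-responders (adjusted p = 0.135). For Sesn2 it was 0.98 ± 0.18 in stable tumours (1.97-fold, adjusted p = 0.000125), 0.84 ± 0.17 in responders (adjusted p = 0.0002) and 0.42 ± 0.18 in non-responders (adjusted p = 0.127). All 6 stable tumours and all 8 responders lay above all 5 controls for both genes, and both calls held without any 1 tumour. Stable tumours also had more Herpud1, by 0.69 ± 0.15 (1.61-fold, adjusted p = 0.000858) with all 6 above all controls, and more Asns, by 1.10 ± 0.38 (2.14-fold, adjusted p = 0.0231). The Asns call was lost without control 4 (1.03, adjusted p = 0.0569) or stable tumour 4 (0.94, adjusted p = 0.0579). In responders Herpud1 was at 0.14 ± 0.14 and Asns at 0.28 ± 0.35 relative to controls.

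In counts, 4 of 10 members were higher in stable tumours than in controls, against 22.2% of tested genes higher, 19.6% lower and 41.8% called in either direction. For 3 of the 10 the groups did not overlap, against 18.4% of tested genes with all stable tumours above all controls. The median of the 10 was 0.59 beside 0.02 for all genes, and all 10 values were above 0, as were 51.7% of those of all tested genes. In responders against controls 2 of 10 were higher, where 36.1% of tested genes were higher, 28.9% were lower and 65.0% were called in either direction, and 14.9% of genes had all responders above all controls; the members' median of 0.12 lay near the 0.16 of all genes. Ddit3 was at −0.63 ± 0.29 (adjusted p = 0.058) in this comparison and was called lower without control 5 (−0.78), responder 3 (−0.68) or responder 5 (−0.72). Of 12 other settings it was called lower in 4: RLE size factors, no low-count filter, only the 2 groups compared, and DESeq2. Herpud1 was called higher in 3 of them: the model with protein-coding share and limma with both pseudocounts. Hspa5 was called lower without responder 5 (−0.58), and Chac1 was called higher without control 3 (1.99) and by DESeq2. In non-responders against controls edgeR called 0 of 10 members, with 2 at an unadjusted p under 0.05, where 10.6% of all tested genes were called higher, 3.29% lower and 13.9% in either direction. There DESeq2 also called 0, limma on log2(RPKM + 1) called 0 and limma on log2(RPKM + 0.1) called 1, Xbp1. Sesn2 was called higher in non-responders without non-responder 3 (0.50). Plasma cells also make much XBP1: their summed markers reached 44.1 to 112 CPM in controls and 58.9 to 137 CPM in non-responders, and 92.0 to 335 CPM in stable tumours and 79.6 to 295 CPM in responders, and 4 of 4 tested plasma cell markers were called higher than controls in both stable tumours and responders. The median log2 fold change of the 4 tested plasma cell markers against controls was 3.84 in stable tumours and 3.74 in responders. A summed value follows the most abundant markers of its list. Macrophage markers were also higher than in controls, 6 of 6 in stable tumours and 4 of 6 in responders, and melanocytic markers were lower, 5 of 5 in both. The part of these markers in the results was not tested.

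**Figure D4:**
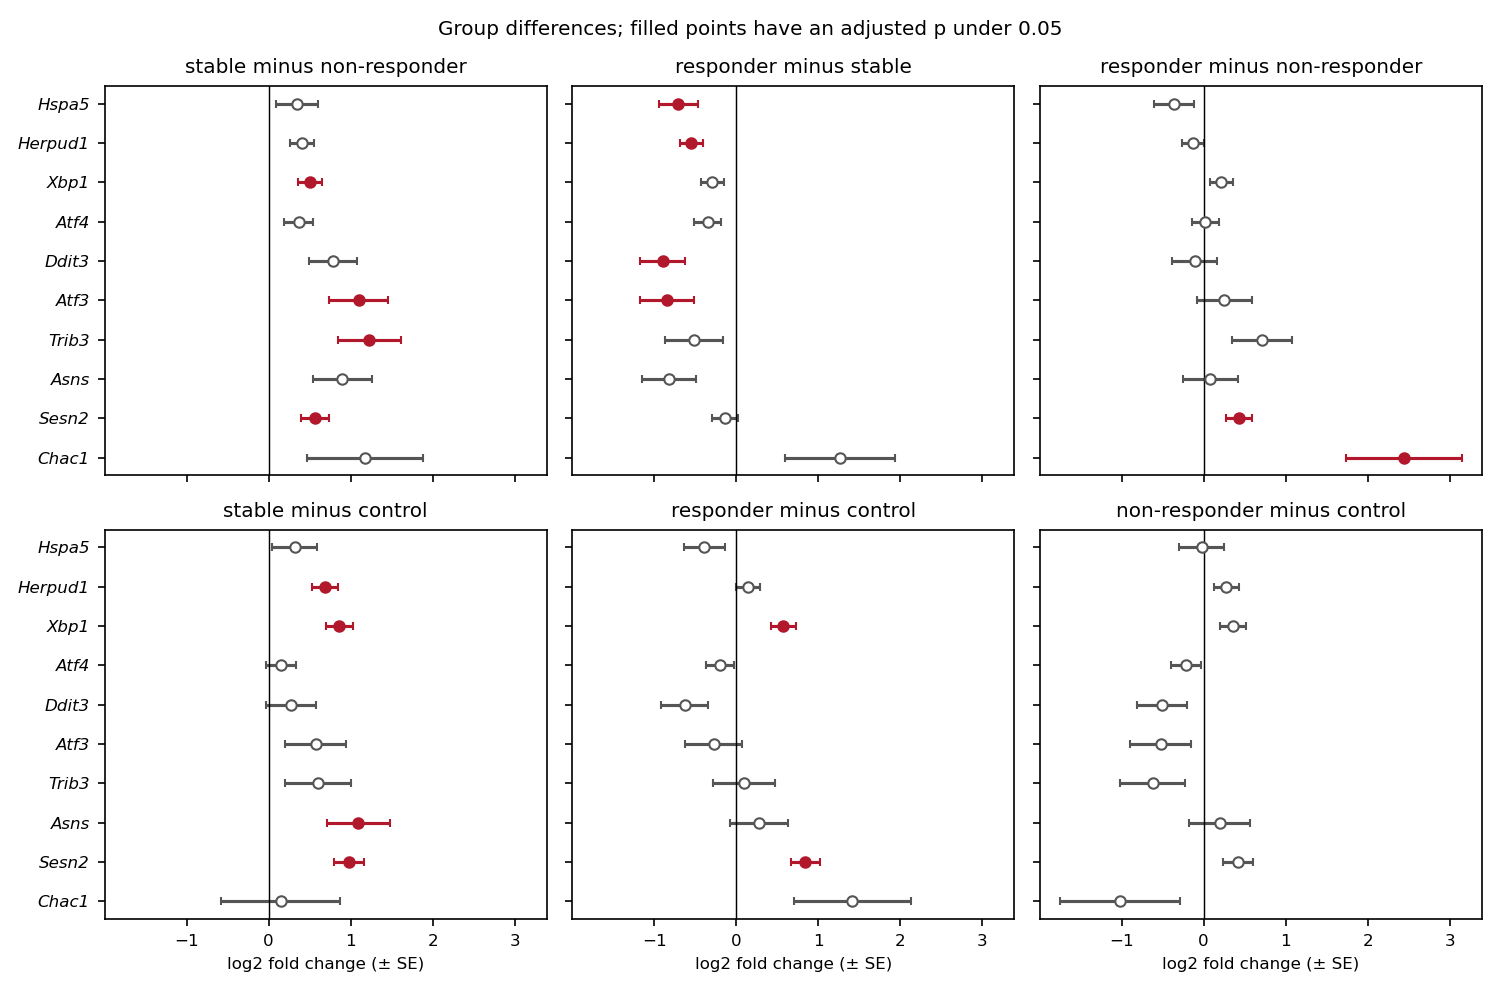
Log2 fold change (x axis) of each of the 10 genes (rows) in the 6 comparisons (panels), as points with bars of 1 SE, filled where the adjusted p of edgeR is under 0.05. Stable tumours lie above 0 for all 10 genes against both non-responders and controls, and responders lie below 0 for 9 of 10 against stable tumours.

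The other genes of the 2 pathways were read from lists of their known roles. Of the 6 genes of sensors and of proteases that cut ATF6, 2 were higher and 1 lower in the stable group than in non-responders, and 1 was higher and 1 lower in responders than in non-responders, where 14.9% and 48.9% of all tested genes were called in either direction. Ern1 had a log2 fold change of 0.74 ± 0.12 (SE) in responders against non-responders (edgeR quasi-likelihood test, adjusted p = 8e-05) and 0.56 ± 0.12 in stable tumours against non-responders (adjusted p = 0.00544). In both cases all tumours of the first group lay above all non-responders, as was so for 2.07% of tested genes in either comparison. Against controls the Ern1 value was 0.90 ± 0.12 in responders and 0.71 ± 0.13 in stable tumours. Atf6 was higher in the stable group than in non-responders (0.50 ± 0.13, adjusted p = 0.0115) and lower in responders than in stable tumours (−0.45 ± 0.12, adjusted p = 0.00706). Mbtps1, which encodes the site-1 protease, was below its non-responder level in the stable group (−0.27 ± 0.09) and in responders (−0.27 ± 0.08). Ppp1r15a, the stress-induced phosphatase subunit GADD34 that reverses eIF2alpha phosphorylation, exceeded its non-responder level in the stable group (0.99 ± 0.24, adjusted p = 0.00882) and in responders (0.60 ± 0.23, adjusted p = 0.0314). Among the 11 genes of eIF2alpha kinases, phosphatase subunits and the exchange factor eIF2B, 5 were lower and 1 higher in responders than in stable tumours, where 17.8% of all tested genes were lower and 20.5% higher. Eif2s1 (eIF2alpha itself) was at −0.58 ± 0.17, Eif2b1 (an eIF2B subunit) at −0.49 ± 0.15, Eif2ak2 (the double-stranded RNA sensor PKR) at −0.43 ± 0.14 and Eif2ak4 (the amino acid sensor GCN2) at 0.56 ± 0.13. Against non-responders 4 of the 11 were lower and 2 higher in responders, where 23.8% of all tested genes were lower and 25.2% higher. Eif2b1 was at −0.87 ± 0.15 there and Eif2ak2 at −0.64 ± 0.14.

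Of the 16 ER chaperones and foldases other than Hspa5, 11 were lower in responders than in stable tumours, against 17.8% of all tested genes called lower and 38.2% in either direction, with a median log2 fold change of −0.59, and all 16 values were below 0, where 50.5% of all tested genes were above 0. Pdia3, a disulfide isomerase, was at −0.74 ± 0.17 (edgeR quasi-likelihood test, adjusted p = 0.00412), Calr (calreticulin) at −0.81 ± 0.23 (adjusted p = 0.00941) and Sdf2l1 at −0.82 ± 0.26 (adjusted p = 0.0172). Against non-responders 9 of 16 were lower and 1 higher, where 23.8% of tested genes were lower and 25.2% higher, with Calr at −0.77 ± 0.23, Pdia4 at −0.70 ± 0.23 and Canx (calnexin) at −0.64 ± 0.19, and the ER oxidase Ero1lb higher at 0.57 ± 0.19. In stable tumours against non-responders, by contrast, Ero1lb was the 1 called gene of the 16, at 0.84 ± 0.20, and the median was 0.10. Without responders 1 and 4, 5 of 16 were lower than in stable tumours (median −0.45), where calls among all genes fell from 6891 to 4018. Against non-responders 2 of 16 were lower (median −0.34), where they fell from 8823 to 7097. In the model with protein-coding share, edgeR called 0 of 16 lower in both comparisons (medians −0.21 and −0.11), and 0 and 1810 of all genes. That share differs mainly between responders and the other tumours, so the model separates share from group poorly. The list medians of both comparisons were below 0 under each scaling and filter tried. Macrophage (4 of 6), endothelial (3 of 4) and adipocyte (2 of 4) markers were also called lower in responders than in stable tumours; their part in the result was not tested.

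Genes of ER-associated degradation moved in both directions. In stable tumours against non-responders 3 of 12 were higher, where 7.08% of all tested genes were: the mannosidase-like genes Edem1 (0.48 ± 0.12) and Edem2 (0.47 ± 0.13), and Sel1l (0.37 ± 0.12), which holds the ubiquitin ligase complex together. In responders against stable tumours 9 of 12 were lower and 1 higher, where 17.8% of all tested genes were lower and 38.2% called in either direction, among them Ube2j1 (−0.66 ± 0.18) and the lectin gene Os9 (−0.50 ± 0.12). Syvn1, the ubiquitin ligase HRD1, went the other way, with 0.98 ± 0.21 (edgeR quasi-likelihood test, adjusted p = 0.00288) against stable tumours and 0.81 ± 0.21 (adjusted p = 0.00341) against non-responders. Without responders 1 and 4, 5 of 12 were lower and 1 higher than in stable tumours, where calls among all genes fell from 6891 to 4018. Vcp, the ATPase that pulls proteins out of the ER membrane, was at −0.57 ± 0.13 in responders against non-responders, where Derl3, another ER-associated degradation gene, was at 2.29 ± 0.64. In that comparison 4 of 12 were lower and 2 higher, where 23.8% of all tested genes were lower, 25.2% higher and 48.9% called in either direction.

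Among 17 ATF4-linked genes of amino acid supply and tRNA charging, Slc7a11 and Slc3a2, the 2 subunits of the cystine transporter xCT, were the genes called higher in the stable group than in non-responders, by 4.51-fold (edgeR quasi-likelihood test, adjusted p = 0.0217) and 1.61-fold (adjusted p = 0.0124). Of all tested genes 7.08% were called higher there. Slc7a11 was at a mean of 146 CPM in stable tumours, 124 in responders, 32.4 in non-responders and 11.0 in controls. It was also higher in responders than in non-responders, by 1.93 ± 0.59 (adjusted p = 0.0105), where Slc7a3 (1.44 ± 0.35) and Cars (0.50 ± 0.16) were higher and Psat1 (−0.61 ± 0.19) and Shmt2 (−0.38 ± 0.15) lower. These are 3 of 17 higher and 2 lower, where 25.2% of all tested genes were higher, 23.8% lower and 48.9% called in either direction. In responders against stable tumours 7 of 17 were lower and 1 higher, where 17.8% and 20.5% of all tested genes were; Mthfd2, a mitochondrial folate enzyme, was at −0.90 ± 0.27, the tryptophan tRNA ligase gene Wars at −0.79 ± 0.19 and the serine synthesis gene Phgdh at −0.58 ± 0.20. Wars is also known as an interferon-induced gene. That count is unsteady. It was 3 of 17 without responders 1 and 4, where calls among all genes fell from 6891 to 4018. With 1 tumour left out it was between 2 and 10, where calls among all genes were between 5131 and 8862. With all tumours it was 4 by RLE size factors and by upper quartile scaling, where 6834 and 6783 of all genes were called.

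Partners and further targets of ATF4 and CHOP divided. Cebpb, a partner of ATF4, exceeded its non-responder level in the stable group (1.86 ± 0.38, edgeR quasi-likelihood test, adjusted p = 0.00405) and in responders (1.66 ± 0.36, adjusted p = 0.001), and is also abundant in macrophages. Nupr1 (0.95 ± 0.23) and Cebpg (0.54 ± 0.13), which encodes another ATF4 partner, were higher in stable tumours, and Atf5 (0.56 ± 0.18) and the p53 target Bbc3 (0.51 ± 0.18) in responders. Gdf15, which encodes a stress-induced cytokine, was lower than in non-responders in both, by −2.72 ± 0.71 in stable tumours (adjusted p = 0.0134) and −3.36 ± 0.68 in responders (adjusted p = 0.000588); Vldlr was lower in responders by −0.45 ± 0.18. In all, 3 of 10 tested were higher and 1 lower in stable tumours, and 4 higher and 2 lower in responders, where 14.9% and 48.9% of all tested genes were called in either direction. Immediate early genes, which respond to many stimuli and to tissue handling, had 3 of 9 higher in the stable group than in non-responders (Junb at 0.94 ± 0.24, Zfp36 at 0.59 ± 0.12 and Dusp1 at 0.58 ± 0.18) and 3 of 9 in responders (Fosb at 0.90 ± 0.31, Junb at 0.73 ± 0.23 and Zfp36 at 0.47 ± 0.11). Of all tested genes, 7.08% were higher in the first of these comparisons and 25.2% in the second. Of 7 cytosolic heat shock genes, Hsp90aa1 (−0.78 ± 0.27), Hspa8 (−0.72 ± 0.23) and Dnajb1 (−0.46 ± 0.15) were lower in responders than in stable tumours, where 17.8% of all tested genes were. Against non-responders the same 3 were lower and Hspb1 was higher (1.02 ± 0.42), so 4 of 7 were called where 48.9% of all tested genes were. Of 8 hypoxia genes, Car9 was below its non-responder level in the stable group (−1.74 ± 0.53) and responders (−2.31 ± 0.50), and Vegfa, which ATF4 also induces, was higher in responders (0.84 ± 0.21). No other gene of the 8 was called in these comparisons, where 14.9% and 48.9% of all tested genes were called in either direction.

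**Figure D5:**
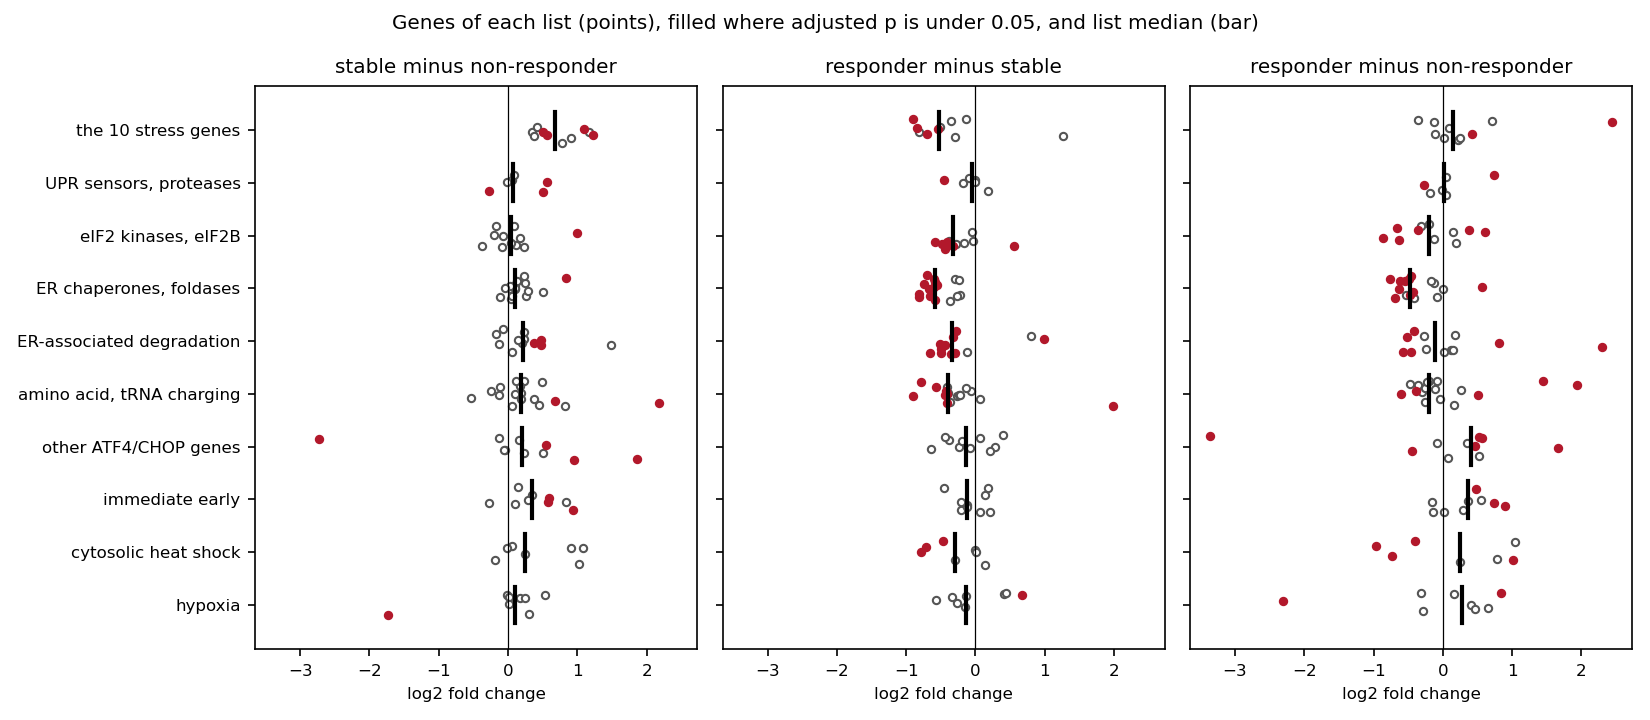
Log2 fold change (x axis) of every tested gene of each pathway list (rows) in the 3 comparisons between anti-CTLA-4 outcome groups; points are genes, filled where the adjusted p of edgeR is under 0.05, and bars are list medians. ER chaperones and foldases lie left of 0 in responders against stable tumours (median −0.59) and, but for 1 of 16 genes, against non-responders (median −0.47), while the 10 stress genes lie right of 0 in stable tumours against non-responders (median 0.67).

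The levels of the 10 genes were also set against each other over the 25 tumours. These correlations are of log2 CPM, are given as a description, and share library depth, library composition and group differences. Of 45 pairs 28 had a Pearson r above 0.5, with a median of 0.56 over all tumours and 0.63 within groups. Ddit3 correlated with Atf4 at r = 0.90 and with Atf3 at 0.90, and Atf3 with Trib3 at 0.89. Chac1 had an r of −0.03 with Herpud1 and 0.62 with Sesn2. Herpud1 correlated with Asns at 0.78, with Xbp1 at 0.75 and with Hspa5 at 0.71.

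Among all other genes of at least 1 CPM, Hspa5 was most like Sdf2l1 (r = 0.97), Atp6ap1 (0.97) and Pdia6 (0.96), the first and last of them ER chaperone or foldase genes. Ddit3 and Atf4 were each other's nearest gene (0.90). Atf3 (0.90) and Zfand2a (0.88) came next for Ddit3, and Zfand2a (0.90) and Sqstm1 (0.89) for Atf4. Atf3 was most like Lgals3 (0.94) and Trib3 like Hk2 (0.93), which encodes hexokinase 2. Asns was most like Mthfd2 (0.95), Hax1 (0.93) and Tspo (0.93). The nearest genes of Xbp1 were of another kind: Gngt2, Cd53 and Fcgr3, each at 0.95 over 25 tumours and 0.87 to 0.89 within groups. Cd53 and Fcgr3 are known as leukocyte genes. Herpud1 was most like Abi1 (0.92), Sesn2 like Pqlc1 (0.94), Tmeff1 and Inhba, and Chac1 like Dusp14 (0.88), Slc6a19 and Rhpn2.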

How the data were processed

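Total RNA of 25 tumours was sequenced with a stranded total RNA kit, per the labels' protocols, whereas their molecule field says polyA RNA. Per the submitters' processing notes, bcl2fastq 2.17, Trimmomatic, STAR 2.5.1, RSEM 1.2.22 and mm10 were used. The authors deposited estimated counts (expected counts) for 55450 genes, of which 5.64% of values were not whole, and RPKM values for 19522 symbols, with gene lengths not given in the sources used here. All gene IDs matched GENCODE M21. Counts were rounded and tested in edgeR 4.0.16 (R 4.3.3) with filterByExpr, TMM scaling and the robust quasi-likelihood test, in 1 model of 4 groups with 6 contrasts. P-values were adjusted by Benjamini-Hochberg over 18031 genes, and called means an adjusted p under 0.05. Each SE was derived from the test, as the absolute log2 fold change divided by the square root of the quasi-likelihood F statistic. Alternatives changed the scaling, the filter (none, or 1 CPM in 8 tumours with a mean count of 50), the genes counted, the samples fitted and the fold tested, added protein-coding share to the model, left out tumours, or used DESeq2 1.42.0 and limma 3.58.1, the latter on log2(RPKM + 1) and log2(RPKM + 0.1) for genes of at least 0.5 RPKM in 5 tumours. The fitting code was tested on simulated data. Replicates were separate libraries: their counts differed by a chi-square per gene of at least 15.7. Depth limits Chac1 most, with 21 to 360 counts per tumour.

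The members and lists were chosen with earlier results of these data known. All 10 members are named in every comparison; from each other list, names come from up to 3 genes called higher and up to 3 called lower with the largest change per comparison. Not every gene this rule names is described, and 1 is not reported here. Genes of like pattern are the 3 of highest Pearson r over 25 tumours among genes of at least 1 CPM, predicted genes left out. Replicates are numbered in record order.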

Additional observations from a re-analysis of the deposited data

How the results depend on the processing

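No paired analysis was possible because the tumours carry no replicate numbers shared between groups in the labels. The number of members called, as reported, was 2 for responders against non-responders, 4 for responders against stable tumours, 4 for stable tumours against non-responders, 2 and 4 for responders and stable tumours against controls, and 0 for non-responders against controls (2 at an unadjusted p under 0.05 by edgeR). Of all genes, 8823, 6891, 2693, 11723, 7531 and 2500 were called in the same order. With no low-count filter 1 member was called for responders against non-responders, beside 8360 of all genes. For stable tumours against non-responders 0 members were called (7 at an unadjusted p under 0.05), beside 1906 of all genes. In the model with protein-coding share 0 members were called for responders against non-responders (1 at an unadjusted p under 0.05), beside 1810 of all genes. For responders against stable tumours 0 members were called (0 at an unadjusted p under 0.05), beside 0 of all genes. Tested against a 1.5-fold change the number of members was 1, 0, 0, 0 and 1 in the order above for the comparisons with calls, with 1, 1, 2, 1 and 3 at an unadjusted p under 0.05. That test called 1995, 724, 155, 6535 and 3528 of all genes. With only the 2 groups compared 1 member was called for responders against non-responders, beside 6708 of all genes. Without responders 1 and 4, an alternative chosen after seeing the data, 0 members were called for responders against non-responders (1 at an unadjusted p under 0.05), beside 7097 of all genes. For responders against stable tumours 2 members were called, beside 4018 of all genes. In the order above DESeq2 called 2, 5, 6, 4, 4 and 0 members, beside 9409, 7355, 3520, 12072, 8159 and 3264 of all genes. In the same order limma on log2(RPKM + 1) called 3, 3, 5, 3, 4 and 0, beside 7349, 5470, 3159, 9434, 6737 and 2208 of all genes. For non-responders against controls limma on log2(RPKM + 0.1) called 1 member, beside 2357 of all genes. With 1 tumour left out the number of members called ranged from 1 to 4, 1 to 6, 0 to 7, 2 to 4, 3 to 4 and 0 to 1 in the order above. Calls among all genes also moved, in the same order from 7255 to 10052, 5131 to 8862 and 1470 to 3804 between outcome groups. Against controls they ranged from 10978 to 12223, 6657 to 7304 and 1570 to 4237. Upper quartile scaling moved the median log2 fold change of all genes to 0.24 for responders against controls.

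None of the values that changed sign was called as reported. With no low-count filter these were Atf4 in responders against non-responders (−0.0711) and Trib3 (−0.0901) and Herpud1 (−0.035) in responders against controls. Trib3 was −0.00225 there with only the 2 groups compared, and Hspa5 was 0.00377 in non-responders against controls with the stricter filter. In the model with protein-coding share, Hspa5 was 0.0167, Ddit3 0.0578 and Herpud1 0.10 in responders against non-responders, Chac1 −0.56 in responders against stable tumours, and Hspa5 0.0141 and Chac1 −0.45 in responders against controls. By limma with pseudocounts of 1 and 0.1, Ddit3 was 0.0656 and 0.0711 in responders against non-responders, and Sesn2 0.15 and 0.17 in responders against stable tumours. Leaving out 1 tumour gave −0.23 to 0.026 for Ddit3, −0.0519 to 0.0916 for Atf4, −0.15 to 0.33 for Asns in responders against non-responders; −0.0851 to 0.31 for Trib3 in responders against controls; −0.11 to 0.73 for Chac1 in stable tumours against controls; −0.12 to 0.0593 for Hspa5, −0.0579 to 0.32 for Asns in non-responders against controls. The cause of these changes was not tested.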
